A study of Homo sapiens with 4 samples.

Results

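The chemokine CXCL12 and its receptors CXCR4 and ACKR3 were followed by single-cell RNA sequencing in 2 established human cell lines that respond to estrogen. These 3 genes were chosen by their names, as a ligand and the receptors that bind it, after earlier results of these data were known. Their measured levels by line and time point, and the rise of CXCL12 in particular, were part of that choice, so these levels are given as a description, with no test. All 3 symbols were found once among the 33540 features of the Ishikawa matrix and once among the 33538 features of the T-47D matrix.

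CXCL12, also called stromal cell-derived factor 1, is a secreted chemokine that is usually made by fibroblasts and other stromal cells and that attracts cells carrying its receptors. CXCR4 is a G protein-coupled receptor that signals through Gi proteins to migration and survival pathways and is well known in breast cancer metastasis. ACKR3, formerly CXCR7, is an atypical receptor that recruits arrestins and takes up CXCL12 rather than signalling through G proteins. CXCL12 has long been known as a gene that estrogen receptor α activates in breast cancer cells.

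Ishikawa cells, an endometrial adenocarcinoma line, and T-47D cells, a breast carcinoma line, were given 10 nM 17β-estradiol (E2) for 2, 4 or 8 h, or the vehicle DMSO, which is called 0 h. Per the study's methods the cells had first been held in hormone-depleted medium for 5 days, which all time points share. The 4 cultures of a line carried MULTI-seq DNA tags and went through the droplet instrument together, in 1 library for each line, so each time point was 1 culture with no replicate. A difference between the lines and a difference between their libraries cannot be told apart.

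The kept cells at 0, 2, 4 and 8 h numbered 776, 1480, 892 and 1465 for Ishikawa, and 1525, 1207, 1341 and 553 for T-47D. Each of these 8 pools held 12927799 to 33175309 unique molecular identifiers (UMIs), which count captured transcripts, and the T-47D pool at 8 h was the smallest. The median cell held 19121.5 to 21435.5 UMIs in Ishikawa and 20677 to 22576 in T-47D. The libraries shared 80 cell barcodes, 5 of them among kept cells of both. The Ishikawa matrix has a GFP entry, which held 3.17% to 4.67% of the UMIs of each pool, and no GFP was counted in T-47D. GATA3, a luminal breast transcription factor, stood at 444 to 518 UMIs per 1000000 (CPM) in T-47D and had 1 UMI in all Ishikawa cells. PAX8, a Müllerian transcription factor, stood at 94.2 to 126 CPM in Ishikawa and had no UMI in T-47D. Levels below are UMIs summed over the cells of a pool and scaled in this way, with exact 95% Poisson intervals. These intervals and all others cover counting error only and take UMIs as independent, although UMIs of 1 cell are not.

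CXCL12 lies on the minus strand of chromosome 10, at chr10:44370165-44385097, and CXCR4 on the minus strand of chromosome 2, at chr2:136114349-136118149, while ACKR3 lies at chr2:236537122-236582354 (RefSeq, GRCh38.p14, the build named hg38 in the labels). The 250 bases before the annotated start are shown for the ligand that rose and the receptor that fell, with GGTCA, an arm of the estrogen response element, in capitals wherever it or its complement TGACC occurs. Both are RefSeq sequences, printed along the gene's own strand. The CXCL12 window is chr10:44385098-44385347 and the CXCR4 window chr2:136118150-136118399.
CXCL12: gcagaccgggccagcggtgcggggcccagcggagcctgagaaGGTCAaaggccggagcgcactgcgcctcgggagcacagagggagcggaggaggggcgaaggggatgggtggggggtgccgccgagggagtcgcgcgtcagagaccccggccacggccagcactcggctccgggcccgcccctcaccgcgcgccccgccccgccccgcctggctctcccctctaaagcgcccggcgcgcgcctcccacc
CXCR4: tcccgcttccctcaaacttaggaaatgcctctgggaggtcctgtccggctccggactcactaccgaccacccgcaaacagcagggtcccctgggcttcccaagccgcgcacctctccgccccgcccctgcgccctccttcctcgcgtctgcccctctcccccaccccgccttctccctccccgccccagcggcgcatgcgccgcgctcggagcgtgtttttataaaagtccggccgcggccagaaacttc

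The CXCL12 window held 1 such arm and the CXCR4 window shown, that of the outermost of 3 listed for the gene, held none. Of 35116 RefSeq promoter windows of this length, 32.6% held the arm on either strand. The full palindrome GGTCANNNTGACC was in neither window and in 0.0399% of all windows. A match of letters is a description, and binding was not measured here. ACKR3 was matched by name to its gene only.

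CXCL12 was found in T-47D only, and there it was higher at every step of the E2 time course. The T-47D pools of 0, 2 and 4 h held 202, 679 and 1195 CXCL12 UMIs, and the smaller 8 h pool held 774. The level was 6.09 CPM (5.28 to 6.99) with vehicle, 25.6 CPM (23.7 to 27.6) after 2 h, 40.3 CPM (38.1 to 42.7) after 4 h and 59.9 CPM (55.7 to 64.2) after 8 h. No neighbouring intervals in this order overlapped. In Ishikawa no CXCL12 UMI was found in any of 4613 kept cells and 95527927 UMIs, with an exact upper limit of 0.0386 CPM. A floor of 3 counts would be 0.0314 CPM, or 0.0650% of cells with a UMI. That share concerns cells with a UMI, not cells that express the gene.

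Against 0 h, the plain ratio of CXCL12 in T-47D was 4.20 (3.59 to 4.94) after 2 h, 6.62 (5.70 to 7.72) after 4 h and 9.83 (8.41 to 11.5) after 8 h. On the log2(CPM + 1) scale the changes were 1.91, 2.54 and 3.102. The first 2 h gave 36.3% of the rise reached at 8 h, and 63.6% was reached by 4 h. The steps from 2 to 4 h and from 4 to 8 h were ratios of 1.57 (1.43 to 1.73) and 1.49 (1.36 to 1.63), so the level had not levelled off at the last time point. Among 7440 T-47D genes with a mean of at least 10 CPM, the share that was at least 1.5-fold higher on this scale was 1.22% after 2 h, 1.33% after 4 h and 2.34% after 8 h. CXCL12 was chosen with its rise known, so nothing is read from its place among them. The T-47D level was 31.1 times the Ishikawa floor of 3 counts per pool at 0 h and 619 times that floor at 8 h. With the counting error of both pools, the 95% lower limits of T-47D over Ishikawa are 25.0 and 502.

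**Figure D1:**
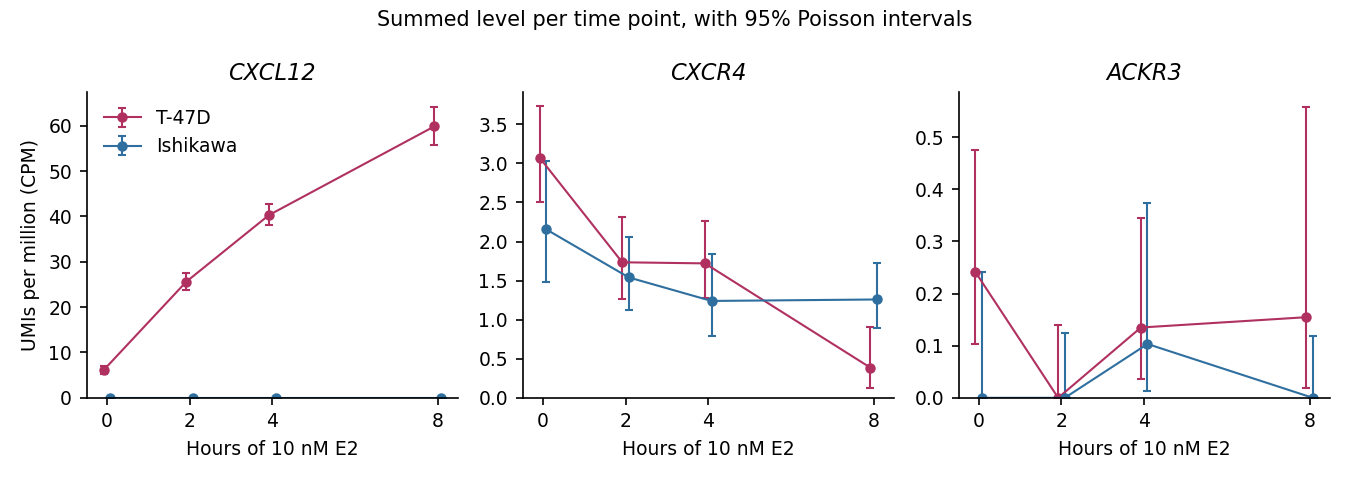
Summed levels of CXCL12, CXCR4 and ACKR3 in CPM (each panel has its own linear axis) against hours of 10 nM E2, for T-47D and Ishikawa, with 95% Poisson intervals as bars. CXCL12 climbs from 6.09 to 59.9 CPM in T-47D and stays at 0 in Ishikawa, CXCR4 drops from 3.07 to 0.387 CPM in T-47D, and ACKR3 stays under 0.25 CPM throughout.

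More T-47D cells held CXCL12 as the time course went on, and those that did held more of it. To compare cells at 1 depth, each cell was thinned to 14495 UMIs, the 10th percentile of kept T-47D cells, which left out 463 shallower cells. At that depth CXCL12 was found in 6.76% of cells at 0 h (90 of 1331, exact binomial interval 5.47% to 8.25%) and in 29.7% at 2 h (27.0% to 32.5%). It was found in 38.0% at 4 h (35.3% to 40.8%) and in 53.0% at 8 h (275 of 519, 48.6% to 57.3%). Without thinning the shares were 10.4%, 35.8%, 48.6% and 63.7%. The 4 intervals did not overlap with or without thinning.

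Thinned cells with CXCL12 held a mean of 1.28 UMIs of it with vehicle and 1.36, 1.498 and 1.65 UMIs after 2, 4 and 8 h. In the unthinned cells, 3 or more CXCL12 UMIs were found in 9 cells at 0 h (0.590%) and in 98 cells at 8 h (17.7%), and the highest single cells held 6 and 11. The 10% of cells with most CXCL12 held 97.0% of its UMIs at 0 h, where 10.4% of cells held any, and 49.3%, 43.0% and 38.0% after 2, 4 and 8 h. The variance of UMIs over cells was 1.56 times the mean at 0 h and 2.04 times at 8 h, where counting alone from 1 common level gives a ratio of 1. These last values rest on unthinned cells, so unequal depth is part of them.

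RNA set free by broken cells can give UMIs in droplets whose cell does not make a transcript. The 4 T-47D cultures shared 1 droplet run, so free RNA was common to them and its part of the 0 h level was not tested. T-47D barcodes with no tag call and under 7500 UMIs (6429 barcodes, median 3423 UMIs) held CXCL12 at 34.7 CPM (32.3 to 37.3), against 27.9 CPM over all kept T-47D cells. The Ishikawa share was 0 of 4613 cells at a like median depth, in a run of its own.

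**Figure D2:**
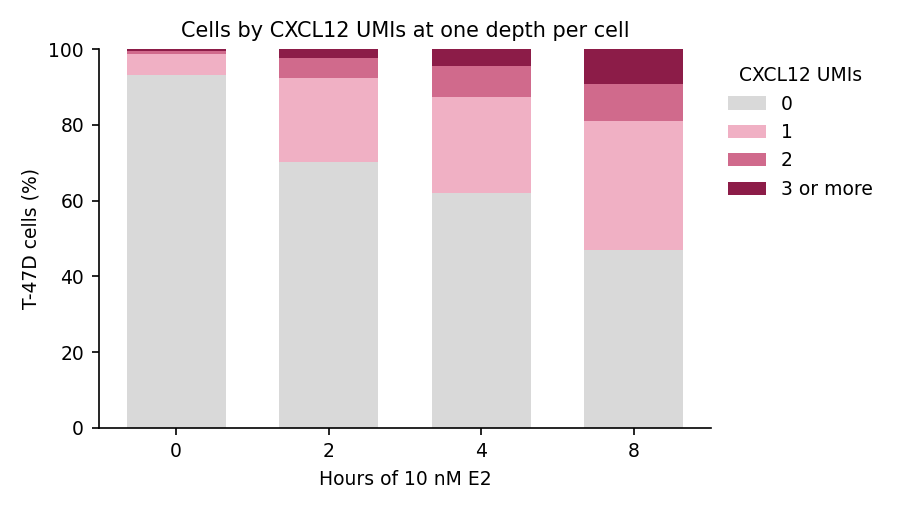
Share of T-47D cells (%) with 0, 1, 2 or at least 3 CXCL12 UMIs by hours of 10 nM E2, each cell thinned to 14495 UMIs. Cells with any CXCL12 UMI take 6.76%, 29.7%, 38.0% and 53.0% of the bars from 0 to 8 h, and those with at least 3 take 0.376%, 2.22%, 4.39% and 9.06%.

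CXCR4 was low in both lines and moved the opposite way to its ligand in T-47D. The T-47D pools held 102, 46, 51 and 5 CXCR4 UMIs from 0 to 8 h. These are levels of 3.07 CPM (2.51 to 3.73), 1.73 CPM (1.27 to 2.31), 1.72 CPM (1.28 to 2.26) and 0.387 CPM (0.126 to 0.903). The 0 h pool was highest and the 8 h pool lowest, while 2 h and 4 h did not differ beyond their counting error.

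Against 0 h, CXCR4 in T-47D was lower by a plain ratio of 1.77 (1.24 to 2.57) after 2 h, 1.79 (1.27 to 2.55) after 4 h and 7.95 (3.30 to 25.0) after 8 h. The last step, from 4 to 8 h, was 4.45-fold (1.79 to 14.3) and rests on the 5 UMIs of the 8 h pool. CXCR4 lies under the 10 CPM minimum, so its background was counted among 12421 T-47D genes with a mean of at least 1 CPM. Of these, 1.43%, 1.82% and 3.41% were lower by a plain ratio of 1.5 or more after 2, 4 and 8 h. The low counts of the gene and its choice with earlier results known leave this as a description.

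In Ishikawa, CXCR4 had 33, 46, 24 and 39 UMIs from 0 to 8 h. The levels were 2.16 CPM (1.48 to 3.03), 1.54 CPM (1.13 to 2.05), 1.24 CPM (0.794 to 1.84) and 1.26 CPM (0.895 to 1.72). The intervals of all 4 time points overlap. The ratio of 0 h to the later pool was 1.40 (0.867 to 2.24) after 2 h, 1.74 (0.997 to 3.08) after 4 h and 1.71 (1.04 to 2.80) after 8 h, and of 13179 Ishikawa genes with at least 1 CPM 3.13%, 3.95% and 3.38% were at least 1.5-fold lower at those times.

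The lines differed in CXCR4 beyond counting error at 8 h, where T-47D over Ishikawa was 0.307 (0.0946 to 0.780). At 0, 2 and 4 h the ratios were 1.43 (0.955 to 2.18), 1.13 (0.732 to 1.73) and 1.39 (0.839 to 2.36), all with intervals that include 1. The receptor mRNA was thus found both in a line with CXCL12 and in a line without it.

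Few cells held CXCR4 at all. In thinned T-47D cells the share was 3.38% with vehicle (45 cells, 2.48% to 4.50%), 1.94% after 2 h (1.21% to 2.95%), 2.27% after 4 h (1.52% to 3.27%) and 0.771% after 8 h (4 cells, 0.210% to 1.96%). In Ishikawa cells thinned to 12539 UMIs it was 2.81% (1.70% to 4.35%), 1.53%, 1.80% and 1.12% (0.630% to 1.85%). Without thinning the shares were 4.66%, 2.73%, 2.76% and 0.904% in T-47D and 3.61%, 2.70%, 2.47% and 2.32% in Ishikawa. At 5000 UMIs the T-47D share was 0.918% at 0 h and 1.16% at 2 h, so the order of these shares depends on depth and no change at 2 h is read from them. The highest single cell held 6 CXCR4 UMIs in T-47D, at 2 h, and 2 in Ishikawa. Over cells the variance of CXCR4 UMIs was 1.84 times the mean in T-47D at 0 h and 1.26 times in Ishikawa at 0 h.

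ACKR3, the scavenging receptor, was at the limit of detection. It had 8, 0, 4 and 2 UMIs in T-47D and 0, 0, 2 and 0 UMIs in Ishikawa from 0 to 8 h, each in a separate cell. The highest level, 0.241 CPM (0.104 to 0.475) in T-47D at 0 h, stands beside a floor of 0.0904 CPM for 3 counts in that pool. The 2 h pool of T-47D held 0 UMIs in 1207 cells, which allows a share of up to 0.305% of cells with a UMI by the exact interval. No direction is read from these counts.

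The ligand and its receptor were seldom found in the same cell, and CXCR4 did not differ beyond counting error between cells with and without CXCL12. In thinned T-47D cells CXCL12 and CXCR4 were both found in 1, 7, 10 and 2 cells from 0 to 8 h, of 4163 cells in all. At 0 h CXCR4 was found in 1.11% (0.0281% to 6.04%) of cells with CXCL12 and 3.55% (2.59% to 4.73%) of cells without it. At 2 h the shares were 2.18% (0.881% to 4.44%) and 1.84% (1.01% to 3.07%).
At 4 h they were 2.14% (1.03% to 3.89%) and 2.36% (1.40% to 3.70%), and at 8 h 0.727% (0.0882% to 2.60%) and 0.820% (0.0994% to 2.93%). The intervals of the pair overlapped at every time point. Cells with and without CXCL12 had median depths of 20339 to 23072 and 21838 to 23177.5 UMIs before thinning.

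Seen from the receptor, 20 of 98 thinned T-47D cells with CXCR4 over the 4 time points also held CXCL12. By time point this was 1 of 45, 7 of 21, 10 of 28 and 2 of 4 cells, a share that went up with the share of all cells holding CXCL12. ACKR3 and CXCL12 were found together in 3 thinned cells, 1 at 4 h and 2 at 8 h. Ishikawa had no cell with both ligand and receptor, since it had no CXCL12 UMI.

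**Figure D3:**
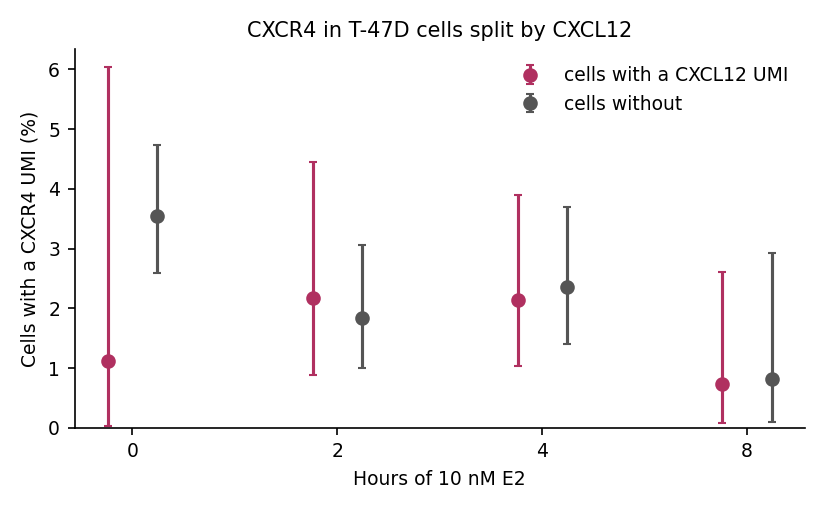
Share of thinned T-47D cells (%) with a CXCR4 UMI by hours of 10 nM E2, in cells with and cells without a CXCL12 UMI, with exact 95% binomial intervals as bars. The bars of each pair overlap at all 4 time points, for example 1.11% against 3.55% at 0 h and 2.18% against 1.84% at 2 h.

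T-47D cells that held CXCL12 also held more of other transcripts that estrogen is known to raise. The comparison used a list of 40 estrogen targets, of which 28 had a mean of at least 10 CPM in T-47D, in thinned cells. The list was written with earlier results of these data known. Summed over the list, cells with CXCL12 held 3094 CPM and cells without it 2242 CPM at 0 h, a ratio of 1.38 (1.34 to 1.43). After E2 the ratio was 1.16 (1.15 to 1.18), 1.21 (1.19 to 1.23) and 1.22 (1.198 to 1.2499) at the successive times.

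Of the 28 targets, 27, 24, 26 and 28 were higher in cells with CXCL12 from 0 to 8 h, many of them not beyond counting error. Among all other genes of at least 10 CPM, 48.1%, 48.3%, 55.5% and 52.8% were higher in these cells at the same times. The median log2 ratio of the list was 0.47, 0.26, 0.29 and 0.25, beside -0.01, -0.01, 0.02 and 0.01 over all genes. At 8 h, cells with no CXCL12 UMI held 4195 CPM of the list, those with 1 held 4848 CPM, those with 2 held 5364 CPM and those with at least 3 held 5943 CPM (5762 to 6129), a rise with each class. At 0 h the same classes held 2242, 2723, 4152 and 6250 CPM. The last of these values rest on 11 cells with 2 UMIs and 5 cells with at least 3. These few vehicle cells thus stood near the level of cells after E2, and why was not tested.

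The highest ratio at 8 h was that of OLFM1, a secreted olfactomedin glycoprotein, at 112 against 62.8 CPM, a ratio of 1.78 (1.51 to 2.10). SUSD3, a sushi domain membrane protein, followed at 1.57 (1.13 to 2.22), and then ABCA3, a lipid transporter, at 1.53 (1.12 to 2.11). TFF1, a secreted trefoil peptide, and AREG, an EGF receptor ligand, both stood at 1.51. The lowest were CCND1, which drives entry into the cell cycle, at 1.02 (0.908 to 1.15), STC2, a secreted glycoprotein, at 1.04 (0.902 to 1.20) and NRIP1, a nuclear receptor corepressor, at 1.08 (0.846 to 1.38), all within counting error of no difference. PGR, the progesterone receptor, stood at 1.14 (1.06 to 1.24), and ESR1, estrogen receptor α itself, at 1.19 (0.944 to 1.52).

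Summed over cells, the genes of dividing cells went the other way after E2. The 8 genes of that list, among them TOP2A, the mitotic topoisomerase, and MKI67, a proliferation marker, were all lower in cells with CXCL12 at 2, 4 and 8 h, and 6 of 8 were lower at 0 h. Their sum was lower by a ratio of 1.07 (0.992 to 1.15) with vehicle, 1.71 (1.63 to 1.81) after 2 h, 1.41 (1.36 to 1.47) after 4 h and 1.65 (1.57 to 1.75) after 8 h. These intervals take UMIs as independent, so they understate the spread between cells. At 8 h, 37 thinned cells held 30 or more UMIs of the 8 genes, 14 of them with CXCL12. A few such cells more or fewer can move these sums, so no difference between single cells is read from them. At 8 h TOP2A was at 88.6 CPM with and 152 CPM without CXCL12, and MKI67 at 31.1 and 66.4 CPM.

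After E2, the share of cells with CXCL12 was lowest in the cells richest in these transcripts. At 2 h, CXCL12 was found in 13.5% (6.68% to 23.5%) of the 74 thinned cells with 30 or more UMIs of the 8 genes, against 28.4% to 32.4% in the 3 classes with fewer, and its interval overlaps those of 2 of these. At 4 h it was found in 30.3% (20.2% to 41.9%) of 76 such cells, against 34.8% to 40.0%, and the intervals overlap. At 8 h it was found in 37.8% (22.5% to 55.2%) of 37 such cells, against 42.4% to 56.4% in the others, again with intervals that overlap. Of the other 3 classes, the one with no UMI of the 8 genes was lowest each time, at 28.4%, 34.8% and 42.4%. The share thus did not go up steadily as these transcripts became fewer. When unthinned cells were split only by whether they held any TOP2A or MKI67 UMI, the level of CXCL12 without over with was 1.03 (0.765 to 1.40), 1.05 (0.896 to 1.24), 1.12 (0.995 to 1.26) and 0.891 (0.772 to 1.03) from 0 to 8 h. Each of these intervals includes 1.

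**Figure D4:**
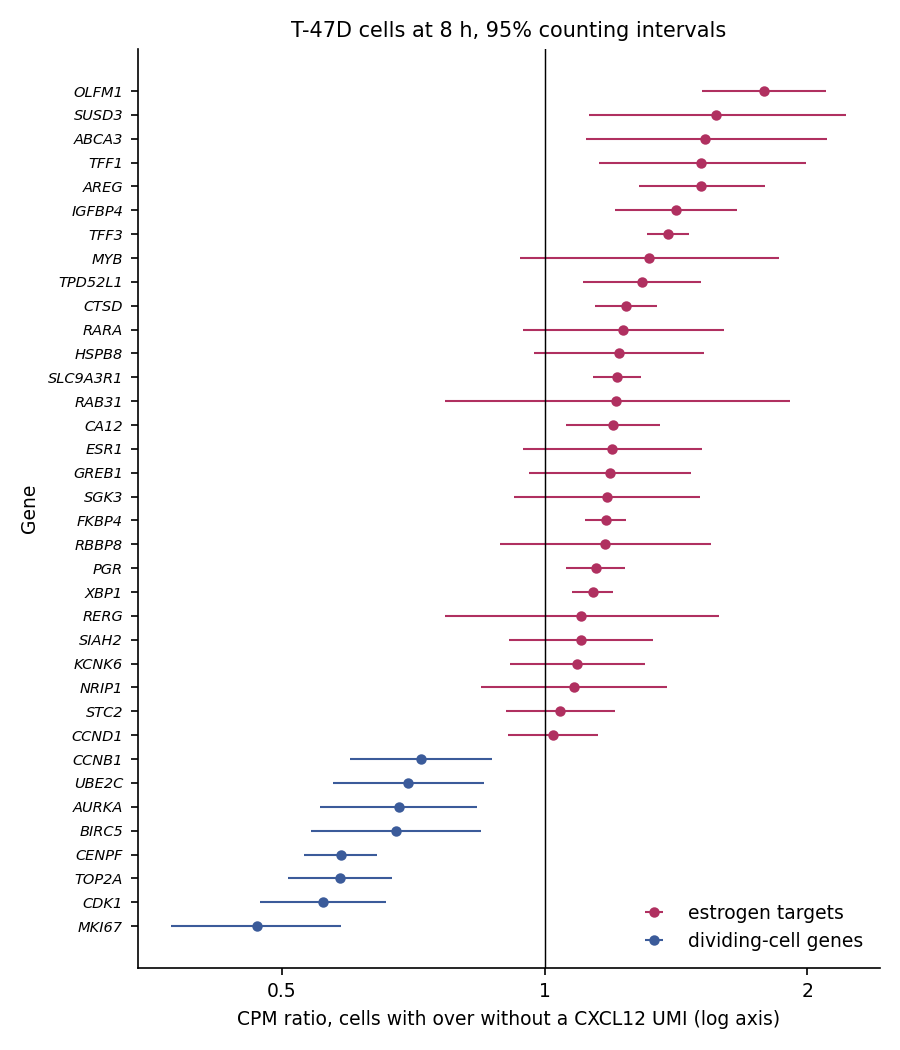
Ratio of CPM in thinned T-47D cells with over without a CXCL12 UMI at 8 h (log axis), for the 28 estrogen targets of at least 10 CPM and the 8 genes of dividing cells, with 95% counting intervals as bars. All 28 estrogen targets lie above 1, from 1.02 for CCND1 to 1.78 for OLFM1, though many of their bars cross 1. All 8 genes of dividing cells lie below 1.

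In the few T-47D cells that held CXCR4, the sum of transcripts of dividing cells was also lower. In thinned T-47D cells the list was lower in them by a ratio of 2.36 (2.03 to 2.74) with vehicle, 3.90 (2.91 to 5.35) after 2 h and 2.65 (2.16 to 3.28) after 4 h, over 45, 21 and 28 cells with CXCR4. Their estrogen targets were at 1.09 (1.03 to 1.14), 1.08 (1.03 to 1.15) and 0.978 (0.931 to 1.03) times the level of other cells when summed. By gene, 17, 11 and 9 of the 28 targets were higher in cells with CXCR4, with median log2 ratios of 0.08, -0.07 and -0.29, so the sum and the median differ in sign at 2 h. In the unthinned cells, the CXCR4 level without over with TOP2A or MKI67 was 0.920 (0.605 to 1.42), 1.29 (0.662 to 2.67) and 1.20 (0.657 to 2.27), each with an interval that includes 1. Among all thinned cells, 82 of 1331, 74 of 1082 and 76 of 1231 held 30 or more UMIs of the dividing list at 0, 2 and 4 h. A few such cells more or fewer can move a ratio taken over so small a group. No difference between cells is read from the ratios of that list.

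Most of the genes nearest to the course of CXCL12 in T-47D were listed estrogen targets. Likeness was measured as the distance between the log2 changes at 2, 4 and 8 h, over the 7440 genes of at least 10 CPM. OLFM1 was nearest at a distance of 0.66, with changes of 1.59, 2.03 and 2.82. FMN1, a formin that nucleates actin, was next at 0.90, then TFF1 at 0.92, SUSD3 at 1.02 and GREB1, an estrogen receptor cofactor, at 1.34. All 5 rose by less than CXCL12 at each time point, and this likeness over 3 points that share 1 control pool is a description. OLFM1, TFF1, SUSD3 and GREB1 also belong to the list of estrogen targets, of which 24 of 28 measured members changed by 1.5-fold or more at some time point, where 3.64% of all genes did. That list was written with earlier results of these data known, so the overlap and this share are descriptions only. PGR was at 130 CPM in the 0 h pool of T-47D and 355 CPM in the 8 h pool, and GREB1 at 10.4 and 47.3 CPM.

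**Figure D5:**
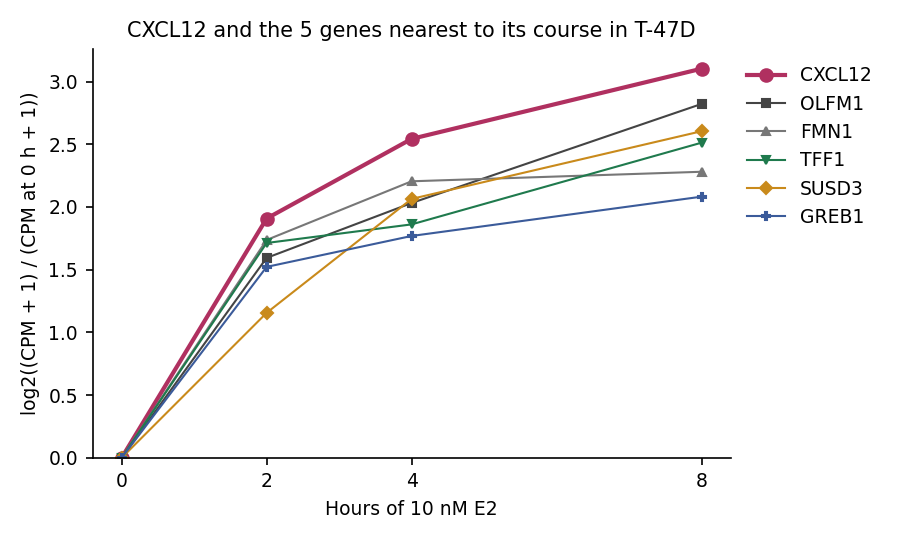
Change from 0 h in T-47D on the log2(CPM + 1) scale against hours of 10 nM E2 for CXCL12 and the 5 genes nearest to its course. CXCL12 lies above the others, at 3.102 at 8 h, and OLFM1 is nearest to it, at 2.82.

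Other genes of the chemokine system were followed beside the 3 members. Lists of 32 other chemokine ligands, 22 other chemokine receptors, 29 genes of receptor signalling, 20 genes that dampen receptors and 16 genes that process or bind chemokines were followed, 119 genes in all. In T-47D 34 of them had a mean of at least 10 CPM and none changed by 1.5-fold at any time, against those 3.64% of all genes. With so few genes that count is near the background and says nothing particular about them. Of the list genes under 10 CPM in T-47D, CCL2 and GNAI1 passed 1.5-fold on this scale, each lower than at 0 h. CCL2, a chemokine ligand, had 286, 111, 168 and 85 UMIs from 0 to 8 h, a change of -0.89 at 2 h. GNAI1, a Gi protein subunit, had 157, 88, 72 and 39 UMIs, a change of -0.74 at 4 h. No share over all genes was set beside these, so they are a description. In Ishikawa 2 of 38 changed, where 2.46% of all genes did.

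Among the ligands, T-47D held 3 of 32 at 10 CPM or more and had no UMI of 17. Of these 3, CCL28, a mucosal chemokine, stood nearest to the fold threshold, with 25.5 CPM at 0 h and 37.7, 34.9 and 38.1 CPM after E2, changes of 0.55, 0.44 and 0.56 on the log2 scale. CXCL16, a membrane-bound chemokine, stood at 32.4 CPM at 0 h and 30.2 CPM at 8 h, and MIF, a cytokine that can also bind CXCR4, at 568 and 611 CPM. In Ishikawa, MIF stood at 522 to 572 CPM and CXCL16 at 13.3 to 15.0 CPM, and no other ligand reached 10 CPM. MIF was thus present in both lines, and CXCL12 in T-47D alone.

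No other chemokine receptor had a mean of 10 CPM over the 4 pools in either line. In T-47D the highest were ACKR2, a scavenger of inflammatory chemokines, at 2.86 to 3.98 CPM, and CD74, which binds MIF, at 2.23 to 3.33 CPM. In Ishikawa CD74 stood at 8.78 to 11.3 CPM and ACKR2 at 1.13 to 2.09 CPM. CXCR4 was in this low range, and 8 of the 22 listed receptors in T-47D and 7 in Ishikawa had no UMI.

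Much of the machinery below the receptor was found in both lines. GNAI2, the Gi protein subunit to which CXCR4 couples, stood at 71.2 to 82.3 CPM in T-47D and 94.9 to 105 CPM in Ishikawa. Of 19 measured genes of receptor signalling in each line, none changed in T-47D and 1 in Ishikawa: PLCB1, a phospholipase C, rose from 17.8 CPM at 0 h to 28.8, 30.2 and 34.7 CPM, or by 0.67, 0.73 and 0.93 on the log2 scale. Of the genes that dampen receptors, 10 were measured in T-47D and 11 in Ishikawa, and RGS10, which speeds the switching off of Gi proteins, rose in Ishikawa from 19.6 to 68.2, 67.9 and 60.5 CPM, by 1.75, 1.74 and 1.58. In T-47D RGS10 stood at 28.1 to 31.9 CPM. DPP4, a protease that cuts CXCL12, had no UMI in T-47D, and 2 of the 16 processing genes were measured there, the heparan sulfate carriers SDC2 and SDC4. SDC4 stood at 51.2 CPM at 0 h and 42.5 CPM at 8 h.

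Because CXCL12 is a stromal gene in most tissues, markers of stromal, endothelial and white blood cells were summed beside it. In T-47D each list summed to at most 17.1 CPM in every pool, and their part in the CXCL12 level was not tested. The 9 stromal genes summed to 13.2 to 17.1 CPM over the 4 pools, lowest at 8 h, almost all of it COL1A1 and LUM, with PDGFRB and POSTN at 0. The 6 endothelial genes summed to 0.0754 to 0.155 CPM with 5 of 6 at 0, PECAM1 and CDH5 among them, and the 8 white cell genes to 2.04 to 2.71 CPM, highest at 8 h, with 0 to 3 UMIs of PTPRC in a pool. In thinned cells with against without CXCL12, the ratio of the stromal sum was 1.13 (0.727 to 1.69) with vehicle, 1.12 (0.849 to 1.46) after 2 h, 0.666 (0.511 to 0.862) after 4 h and 0.734 (0.490 to 1.10) after 8 h.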

How the data were processed

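The deposited values are raw UMI counts per gene and cell barcode, which the authors made with Cell Ranger 3.1.0, with hg38 as the build per the labels, and a deposited table gives the time point called for each barcode by its tag. The 3′ chemistry counts 1 end of a transcript, so isoforms of CXCL12 were summed. Kept barcodes were called to 1 time point and lay within the limits of the study's methods (in Ishikawa 2700 to 6000 genes, 8500 to 35000 UMIs and less than 7% of them mitochondrial, and in T-47D 1500 to 6000 genes, 7500 to 40000 UMIs and less than 20%). The T-47D limits removed no called cell, since its deposited calls began at 10004 UMIs and 3002 genes. Barcodes given NA as time point in the deposited calls were taken as tag doublets and left out. Pairs of cells with the same tag could remain, and no other doublet caller was run.

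Members and lists were chosen with earlier results of these data known. UMIs were summed per line and time point and scaled to CPM. With no replicates no test was made and no p-value is given. Changes are log2((CPM + 1)/(CPM at 0 h + 1)), which understates low genes, for genes with a mean of at least 10 CPM; for CXCR4 and ACKR3 plain ratios are given. Intervals are exact Poisson for levels, Clopper-Pearson for shares and conditional binomial for ratios, at 95%. Shares used cells thinned at random to 12539 UMIs (Ishikawa) or 14495 UMIs (T-47D). The fold rule was tested on simulated data first. Named genes were the members, list genes past the fold rule or highest in their list, the 5 genes nearest to CXCL12, and the 5 highest and 3 lowest estrogen targets in cells with CXCL12, beside PGR, GREB1, TFF1, ESR1, TOP2A and MKI67. CCL2 and GNAI1 were named as the T-47D genes of the chemokine lists past the fold rule with no minimum. Alternatives used TMM factors (edgeR 4.0.16), median-of-ratios factors (DESeq2 1.42.0), other cells, folds, minima, pseudocounts and depths. Python 3.11.15, numpy 2.4.6 and scipy 1.17.1 were used. The barcode libraries were used only through the deposited calls.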

Additional observations from a re-analysis of the deposited data

Results flagged for a closer look

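T-47D barcodes outside the comparison of time points held CXCL12 above the vehicle level of 6.09 CPM. The 1442 barcodes given NA as time point in the deposited calls, taken as tag doublets, stood at 27.4 CPM (25.7 to 29.2). This was close to the 27.9 CPM of all kept T-47D cells. The 805 barcodes within the study's limits that had no call stood at 46.8 CPM (43.2 to 50.6), between the 4 h and 8 h pools. The 6429 barcodes with no call and fewer than 7500 UMIs stood at 34.7 CPM (32.3 to 37.3). Their time points are not known, so no change is read from them. CXCR4 in the same 3 sets was 1.75, 1.72 and 1.62 CPM, and Ishikawa barcodes of these kinds held no CXCL12 UMI.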

How the results depend on the processing

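The rise of CXCL12 in T-47D kept its direction under TMM and median-of-ratios factors, an upper UMI limit of 1.5 times the median, other pseudocounts, means over cells and cells with no TOP2A or MKI67 UMI. Every called T-47D cell was a kept cell, so that setting could change no summed value there. Ishikawa was also run on cells with under 1% GFP. A pseudocount of 5 lowered the log2 changes to 1.46, 2.03 and 2.55 by its construction, and the range over all these was 1.46 to 2.05, 2.03 to 2.71 and 2.55 to 3.28 at 2, 4 and 8 h. CXCR4 in T-47D stayed lower than at 0 h, from -0.79 to -0.26, -0.80 to -0.26 and -2.71 to -0.58. CXCR4 in Ishikawa at 2 h ran from -0.46 to 0.14, the highest in cells with no TOP2A or MKI67 UMI, and stayed below 0 at 4 and 8 h. TMM and median-of-ratios factors moved the median gene by at most 0.0383. Shares of cells followed depth by construction. Without thinning, CXCL12 was found in 10.4%, 35.8%, 48.6% and 63.7% of T-47D cells, and at 5000 UMIs in 2.95%, 12.3%, 17.4% and 23.9%. At the Ishikawa depth of 12539 UMIs, a setting added after the data were seen, it was in 26.5% at 2 h and 47.5% at 8 h, and CXCR4 in 2.27% at 0 h. CXCR4 at 5000 UMIs was in 0.918%, 1.16% and 0.895% of T-47D cells at 0, 2 and 4 h, which turns the order of 0 and 2 h, and in 1.29%, 0.743%, 0.897% and 0.478% of Ishikawa cells, and without thinning in 4.66% of T-47D cells at 0 h and in 2.70% and 2.32% of Ishikawa cells at 2 and 8 h. The genes higher in T-47D, 91, 99 and 174 at 2, 4 and 8 h, numbered 254, 334 and 529 at a lower fold threshold, 39, 39 and 61 at 2-fold, 204, 219 and 413 with no minimum and 26, 34 and 51 above 50 CPM. Genes of the 5 chemokine lists past the fold rule, 0 in T-47D and 2 in Ishikawa, became 2 and 6 at the lower threshold, 2 and 5 with no minimum, and in Ishikawa 1 at 2-fold and 1 above 50 CPM. The difference in CXCR4 share between cells with and without CXCL12, and the median ratios of the estrogen and dividing lists at 8 h, moved within their counting error or by under 0.2 on the log2 scale under each setting run on them. No paired analysis was possible because each line and time point was 1 culture. At 5 UMIs of CXCR4 in T-47D at 8 h and at most 8 of ACKR3 in a pool, depth limits what can be said of the receptors.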
